A study of Mus musculus with 19 samples.

Results

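Microglia and macrophages of the cerebellum were followed through 9 of the 22193 genes listed in the deposited tables. The genes were taken by symbol from a list of marker genes drawn up with earlier results of these data known, and all 9 were found. Cx3cr1, P2ry12, Tmem119 and Fcrls mark homeostatic microglia, the resting state of these cells in healthy brain. Csf1r, Trem2, Tyrobp, Cd68 and Aif1 are general myeloid genes, which microglia share with macrophages elsewhere in the body. RNA came from whole cerebellum of C57BL/6 mice at postnatal day 60, 1 library a mouse. Olig1-Gnas denotes 8 mice with a conditional knockout of Gsα, the product of Gnas, by Cre expressed from Olig1, a gene of the oligodendrocyte lineage. In the 8 mice of hGFAP-Gnas the Cre was driven by the human GFAP promoter, which is active in neural progenitors and astrocytes. Ctrl denotes 3 wild-type mice. The series concerns Gsα as a suppressor of medulloblastoma, a cerebellar tumor, and the deposited values of hGFAP-Gnas, unlike those of Olig1-Gnas, are named as tumor. Each comparison with Ctrl therefore sets a cerebellum with a possible tumor beside normal tissue, and it uses the same 3 Ctrl mice.

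Microglia descend from yolk sac progenitors and not from the neural lineages in which these Cre drivers act. They depend on CSF1R, the receptor for the growth factors CSF1 and IL-34, and sense neurons through CX3CR1 and purines through P2RY12. TREM2 is a lipid-sensing receptor that signals through the adaptor TYROBP, and it is known for its part in the passage of microglia to a phagocytic state in which homeostatic genes decline.

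Upstream sequence is shown for 3 genes that rose in both knockouts (Fcrls, Trem2 and Cd68) and for P2ry12, which passed no test. These were picked with the results known, and Cx3cr1, which rose in hGFAP-Gnas, is not shown. A link between the sequence and a rise was not tested. The letters GAGGAA are the core of the site bound by PU.1, the factor encoded by Spi1 that sets myeloid identity. They were searched on both strands (TTCCTC on the reverse) from 250 bases before to 50 bases after the start of each gene, in RefSeq sequences of build GRCm38.p6, and are in capitals below.
Fcrls, chr3:87263475-87263774, minus strand: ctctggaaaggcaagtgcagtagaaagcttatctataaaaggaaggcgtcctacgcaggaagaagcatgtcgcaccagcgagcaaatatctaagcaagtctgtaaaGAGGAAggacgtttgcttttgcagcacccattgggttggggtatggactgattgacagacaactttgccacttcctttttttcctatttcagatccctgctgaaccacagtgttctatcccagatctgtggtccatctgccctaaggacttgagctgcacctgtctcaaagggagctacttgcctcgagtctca
Trem2, chr17:48346151-48346450, plus strand: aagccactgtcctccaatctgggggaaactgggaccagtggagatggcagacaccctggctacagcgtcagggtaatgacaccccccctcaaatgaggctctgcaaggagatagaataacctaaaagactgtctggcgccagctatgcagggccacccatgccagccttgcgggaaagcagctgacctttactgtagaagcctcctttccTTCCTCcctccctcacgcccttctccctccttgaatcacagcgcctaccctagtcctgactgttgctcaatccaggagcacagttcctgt
Cd68, chr11:69666121-69666420, minus strand: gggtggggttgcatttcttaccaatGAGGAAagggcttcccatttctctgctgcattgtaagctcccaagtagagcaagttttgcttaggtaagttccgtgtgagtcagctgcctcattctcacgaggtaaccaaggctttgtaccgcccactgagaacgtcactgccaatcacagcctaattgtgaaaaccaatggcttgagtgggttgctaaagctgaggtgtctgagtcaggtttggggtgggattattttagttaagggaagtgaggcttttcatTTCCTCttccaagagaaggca
P2ry12, chr3:59262936-59263235, minus strand: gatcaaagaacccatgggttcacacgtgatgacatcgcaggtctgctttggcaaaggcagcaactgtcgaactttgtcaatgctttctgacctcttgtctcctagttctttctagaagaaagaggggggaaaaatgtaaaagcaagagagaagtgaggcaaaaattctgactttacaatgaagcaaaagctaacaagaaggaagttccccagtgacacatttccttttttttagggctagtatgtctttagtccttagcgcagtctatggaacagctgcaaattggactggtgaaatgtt
Of the 6 genes matched in this set, 4 held GAGGAA. In Fcrls it began at -144 relative to the start, in Trem2 at -40 on the reverse strand, in Cd68 at -225 and again at 29 on the reverse strand, and in Aif1 at -7 on the reverse strand. The windows of P2ry12 and Cx3cr1 held no GAGGAA. Other forms of the site, such as the aaggaagt in the window of P2ry12, were not searched, so these windows are not shown to lack one. Among all 32851 windows of that length, 28.3% held GAGGAA, and the longer form GAGGAAGT (ACTTCCTC on the reverse) was in 3.20% of all windows and in 0 of the 6.

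The values are FPKM, fragments scaled by transcript length and by the library's mapped fragments, so levels of different genes can be set side by side per length. Depth in reads is unknown, as no read totals are at hand. From the steps between low values, 10 libraries had 0.838 to 1.07 times the depth of Ctrl 2 (Olig1-Gnas 5 to 8, hGFAP-Gnas 1 to 4, Ctrl 1 and 2) and 9 had 0.268 to 0.429 times. RNA of the Y chromosome was present in 2 of 8 Olig1-Gnas, 7 of 8 hGFAP-Gnas and 2 of 3 Ctrl libraries. Gnas was listed at 0 in 3 of 8 Olig1-Gnas, in 7 of 8 hGFAP-Gnas and also in Ctrl 3, with at most 121 FPKM elsewhere in the knockouts against 651 and 798 FPKM in Ctrl 1 and 2. An exact 0 in these tables can thus be a failed estimate. The library labelled hGFAP-Gnas 1 stood apart from the other knockouts. It held 261 FPKM of Gabra6, a gene of mature granule neurons, and 2.70 FPKM of the proliferation gene Mki67. The other 15 knockout libraries held 0 to 159 FPKM of Gabra6 and 43.0 to 264 FPKM of Mki67, and Ctrl held 224 to 468 and 0.188 to 0.325 FPKM. Mki67 and Top2a, another gene of dividing cells, rose by 6.89 and 6.92 on the log2 scale in Olig1-Gnas and by 5.69 and 5.74 in hGFAP-Gnas. Summed markers of cerebellar neurons (Gabra6, Cbln3, Calb1 and Pcp2) ranged over 0.132 to 437 FPKM in Olig1-Gnas and 51.1 to 1269 FPKM in hGFAP-Gnas, against 1418 to 2439.7 FPKM in Ctrl, so the knockout libraries held less RNA of the labelled tissue's own neurons.

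All 5 general myeloid genes were higher in both knockouts than in Ctrl, whereas the homeostatic genes were divided. Fcrls was among the most raised of the 9, Cx3cr1 rose in hGFAP-Gnas, and P2ry12 and Tmem119 passed the test in neither knockout. In all, 6 of 9 genes rose and 0 fell in Olig1-Gnas, where 36.2% of the 14183 genes tested rose and 23.6% fell. In hGFAP-Gnas, 7 of 9 rose and 0 fell, where 26.1% of 14305 genes rose and 12.8% fell. Levels of every knockout library exceeded those of every Ctrl library for 6 of 9 genes in Olig1-Gnas (32.2% of all genes tested) and for 3 of 9 in hGFAP-Gnas (15.2%). Of the 6 genes without this separation in hGFAP-Gnas, 5 missed it through hGFAP-Gnas 1 alone, and P2ry12 missed it through hGFAP-Gnas 1 and 5. Calls were made with limma at an adjusted p below 0.05, and each log2 fold given is a difference of mean log2(FPKM + 1), which is smaller than the ratio for low genes. In RNA of whole tissue, more cells of a type and more RNA per cell cannot be told apart.

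**Figure D1:**
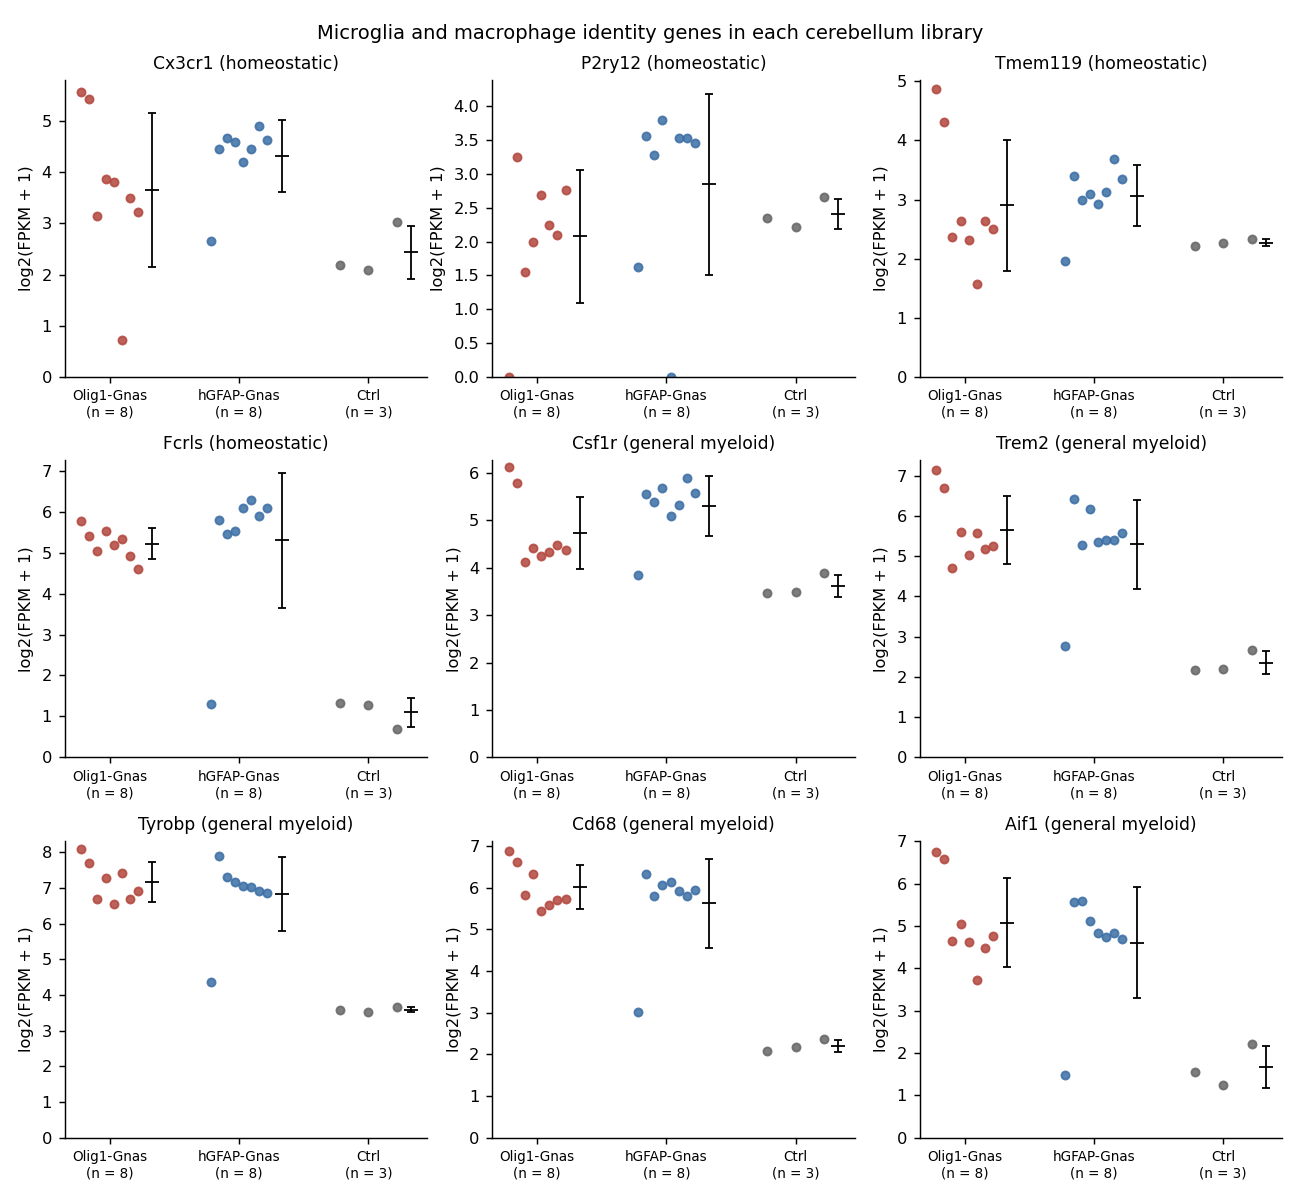
Level of each of the 9 genes as log2(FPKM + 1) on the vertical axis, 1 point a library in the order of the replicate numbers, with mean and SD beside each group of Olig1-Gnas (n = 8), hGFAP-Gnas (n = 8) and Ctrl (n = 3). Olig1-Gnas 1 and 2 are the upper pair of their group for Cx3cr1, Tmem119, Csf1r, Trem2, Tyrobp, Cd68 and Aif1, and hGFAP-Gnas 1 is the lowest of its group for every gene but P2ry12.

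Tyrobp encodes the adaptor that carries signals of TREM2 and other myeloid receptors. It stood at 93.4 to 273 FPKM in Olig1-Gnas (median 136) and at 19.7 to 236 FPKM in hGFAP-Gnas (median 131), against 11.03, 10.5 and 11.7 FPKM in Ctrl 1, 2 and 3. No knockout library overlapped Ctrl, and hGFAP-Gnas 1 was nearest to it. The log2 fold was 3.58 ± 0.30 in Olig1-Gnas (SE, adjusted p = 1.11e-06) and 3.23 ± 0.56 in hGFAP-Gnas (adjusted p = 0.00687). Its location in the tables, on build mm9, is chr7:31198806-31202598.

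Trem2, the lipid receptor paired with that adaptor (chr17:48485725-48491598), was likewise highest in Olig1-Gnas 1. It ranged over 24.9 to 139 FPKM in Olig1-Gnas (median 41.6) and 5.83 to 83.9 FPKM in hGFAP-Gnas (median 41.0), against 3.51, 3.56 and 5.38 FPKM in Ctrl. The 139 and 103 FPKM of Olig1-Gnas 1 and 2 were above every other library, and the lowest hGFAP-Gnas library lay just above the highest of Ctrl. Trem2 rose by 3.30 ± 0.46 on the log2 scale in Olig1-Gnas (adjusted p = 8.37e-05) and by 2.94 ± 0.59 in hGFAP-Gnas (adjusted p = 0.00847).

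Cd68, a glycoprotein of lysosomes in phagocytes (chr11:69477872-69479564), had 42.2 to 117 FPKM in Olig1-Gnas (median 54.1) and 7.13 to 79.3 FPKM in hGFAP-Gnas (median 60.0), against 3.25, 3.49 and 4.15 FPKM in Ctrl. The groups did not overlap in either comparison. Its log2 folds, 3.81 ± 0.29 in Olig1-Gnas (adjusted p = 5.11e-07) and 3.42 ± 0.57 in hGFAP-Gnas (adjusted p = 0.00628), were the highest among the 5 general myeloid genes.

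Aif1, which encodes the actin-binding protein IBA1 by which microglia are stained (chr17:35307936-35312946), varied more between mice. Olig1-Gnas spanned 12.1 to 106 FPKM (median 24.9), where libraries 1 and 2 held 106 and 94.96 FPKM and the other 6 no more than 32.1 FPKM. hGFAP-Gnas spanned 1.77 to 47.3 FPKM (median 27.5), and Ctrl held 1.95, 1.35 and 3.62 FPKM. hGFAP-Gnas 1 lay inside the range of Ctrl and the other 7 lay above it. Aif1 rose by 3.41 ± 0.58 on the log2 scale in Olig1-Gnas (adjusted p = 3.94e-04) and by 2.94 ± 0.72 in hGFAP-Gnas (adjusted p = 0.0135). The second call was lost without Ctrl 1 (adjusted p = 0.0593) or without Ctrl 2 (adjusted p = 0.0629).

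Csf1r, the growth factor receptor on which microglia depend (chr18:61265225-61290793), rose least of the general myeloid genes. Its level was 16.5 to 69.1 FPKM in Olig1-Gnas (median 19.97) and 13.3 to 58.4 FPKM in hGFAP-Gnas (median 43.3), against 9.99, 10.2 and 13.9 FPKM in Ctrl. In libraries 1 and 2 of Olig1-Gnas it reached 69.1 and 54.0 FPKM, and in the other 6 it was 16.5 to 21.2 FPKM, close above Ctrl. hGFAP-Gnas 1 lay among the Ctrl libraries. The log2 fold was 1.12 ± 0.41 in Olig1-Gnas (adjusted p = 0.0340) and 1.68 ± 0.35 in hGFAP-Gnas (adjusted p = 0.00929). In Olig1-Gnas the call was lost without any one of Ctrl 1, 2 and 3 (adjusted p = 0.106, 0.102 and 0.0548), under quantile normalization (adjusted p = 0.0677) or upper quartile scaling (adjusted p = 0.0684), with the Y-linked term (adjusted p = 0.101) and among the shallower libraries (adjusted p = 0.292). In hGFAP-Gnas it was lost without Ctrl 2 (adjusted p = 0.0507).

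Among the homeostatic genes, Fcrls departed from the rest. It encodes an Fc receptor-like protein that in mouse brain marks microglia (chr3:87054886-87067446). Olig1-Gnas held 23.1 to 53.3 FPKM (median 37.5) and hGFAP-Gnas 1.45 to 76.6 FPKM (median 56.6), against 1.53, 1.42 and 0.623 FPKM in Ctrl. Every Olig1-Gnas library and hGFAP-Gnas 2 to 8 lay far above Ctrl, whereas hGFAP-Gnas 1 lay within it. Its mean was 31.5 times that of Ctrl in Olig1-Gnas and 43.5 times in hGFAP-Gnas. On the log2 scale Fcrls rose by 4.12 ± 0.23 in Olig1-Gnas (adjusted p = 4.41e-08) and by 4.20 ± 0.88 in hGFAP-Gnas (adjusted p = 0.00923), the highest of the 9 genes in both. Of all genes tested, 98.9% had a lower fold in Olig1-Gnas and 99.5% in hGFAP-Gnas. Fcrls also varied least between Olig1-Gnas mice, with an SD of 25.5% of its mean, against 40.1 to 103% for the other genes listed above 0 in every library.

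Cx3cr1, the receptor for the neuronal chemokine CX3CL1 (chr9:119957810-119977400), had 46.4, 42.0, 7.81, 13.5, 12.9, 0.639, 10.3 and 8.38 FPKM in Olig1-Gnas 1 to 8. It had 5.33 FPKM in hGFAP-Gnas 1 and 17.5 to 29.1 FPKM in hGFAP-Gnas 2 to 8, against 3.54, 3.27 and 7.14 FPKM in Ctrl. In Olig1-Gnas, 7 of 8 libraries exceeded all Ctrl libraries and Olig1-Gnas 6 lay below them all. The log2 fold of 1.22 ± 0.83 in Olig1-Gnas did not pass (adjusted p = 0.225), and without Olig1-Gnas 6 it was 1.64 and passed (adjusted p = 0.0257). In hGFAP-Gnas it was 1.89 ± 0.41 and passed (adjusted p = 0.0101), which was lost without Ctrl 1 (adjusted p = 0.0528) or Ctrl 2 (adjusted p = 0.0534).

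Tmem119, a transmembrane protein of mature microglia (chr5:114243737-114250361), passed the test in neither knockout. Olig1-Gnas 1 to 8 held 28.1, 18.9, 4.14, 5.21, 3.99, 1.98, 5.22 and 4.66 FPKM, hGFAP-Gnas held 2.87 to 11.9 FPKM (median 7.61), and Ctrl held 3.65, 3.80 and 4.05 FPKM. Apart from libraries 1 and 2, Olig1-Gnas lay within 1.98 to 5.22 FPKM, on both sides of Ctrl. In hGFAP-Gnas, 7 of 8 libraries exceeded Ctrl and hGFAP-Gnas 1 lay below it. Its log2 fold was 0.63 ± 0.59 in Olig1-Gnas (adjusted p = 0.375) and 0.79 ± 0.30 in hGFAP-Gnas (adjusted p = 0.0518). Without hGFAP-Gnas 1 the second became 0.95 and passed (adjusted p = 0.00102).

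P2ry12, the purine receptor by which microglia sense nucleotides from injured cells, had 0, 8.49, 1.94, 2.97, 5.46, 3.73, 3.30 and 5.82 FPKM in Olig1-Gnas 1 to 8. In hGFAP-Gnas 1 to 8 it had 2.09, 10.8, 8.76, 12.9, 0, 10.6, 10.5 and 9.94 FPKM, against 4.11, 3.64 and 5.31 FPKM in Ctrl (4.23 FPKM for Ctrl 1 in the table of hGFAP-Gnas). Olig1-Gnas lay on both sides of Ctrl, and 6 of 8 hGFAP-Gnas libraries exceeded it. The log2 fold was -0.33 ± 0.53 in Olig1-Gnas (adjusted p = 0.610) and 0.43 ± 0.72 in hGFAP-Gnas (adjusted p = 0.646). The tables give P2ry12 a location that 7 genes share (chr3:58810899-59148178), so reads may have been divided between overlapping genes and its values are uncertain. All 7 were listed at 0 in Olig1-Gnas 1 and in hGFAP-Gnas 5, and 0 to 2 of them in other libraries. With zeros taken as missing, which drops those 2 libraries, the log2 fold was -0.04 ± 0.33 in Olig1-Gnas (adjusted p = 0.931) and 0.83 ± 0.40 in hGFAP-Gnas (adjusted p = 0.115). None of the other 8 genes shares its location.

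**Figure D2:**
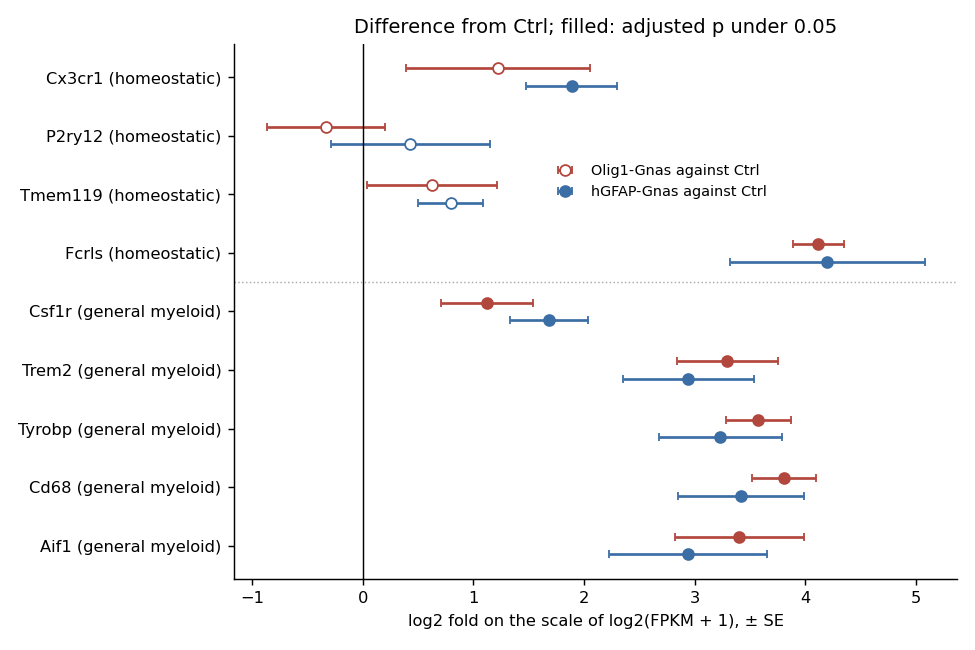
Log2 fold on the scale of log2(FPKM + 1) with SE for each gene in Olig1-Gnas against Ctrl (red) and hGFAP-Gnas against Ctrl (blue), with filled points where the adjusted p was under 0.05. Folds of Trem2, Tyrobp, Cd68 and Aif1 lie between 2.94 and 3.81, Fcrls lies beyond 4, and P2ry12 and Tmem119 lie below 1.

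The counts were also taken among the deeper libraries and with Y-linked RNA in the fit. In Olig1-Gnas, 6 of 9 genes passed among the deeper libraries, beside 6211 of all 13592 genes tested. With the Y-linked term 5 of 9 passed, beside 7739 of all 14183 genes, which is a similar share. In hGFAP-Gnas, 7 of 9 passed with the Y-linked term, beside 5726 of all 14305 genes. Among the deeper libraries, which include hGFAP-Gnas 1, 0 of 9 passed and 6 of all genes did, with log2 folds of 3.13 for Tyrobp, 3.18 for Cd68 and 3.21 for Fcrls (adjusted p = 0.259 to 0.261). The deeper libraries hold 2 of Ctrl and the shallower ones 1, and a fit of the shallower ones takes that lone Ctrl library to vary as the knockouts do. Without hGFAP-Gnas 1, 8 of 9 genes passed, with log2 folds of 4.77 for Fcrls, 3.79 for Cd68, 3.59 for Tyrobp, 3.39 for Aif1, 3.30 for Trem2, 2.13 for Cx3cr1 and 1.89 for Csf1r, and P2ry12 at 0.60 (adjusted p = 0.496). In that fit 8164 of all 14214 genes passed. Without Ctrl 2, 4 of 9 passed, beside 818 of all 14239 genes, and without Ctrl 1, 5 of 9, beside 1049 of all 14250 genes.

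The order of levels among the 9 genes differed between knockouts and Ctrl. By mean FPKM, Olig1-Gnas had Tyrobp first (153 ± 62.6, SD), then Cd68 (67.7 ± 27.2), Trem2 (58.0 ± 40.7), Aif1 (42.5 ± 36.3), Fcrls (37.4 ± 9.54), Csf1r (29.8 ± 20.1), Cx3cr1 (17.75 ± 16.85), Tmem119 (9.02 ± 9.31) and P2ry12 (3.96 ± 2.60). In hGFAP-Gnas the order was Tyrobp (132 ± 59.2), Cd68 (56.4 ± 21.6), Fcrls (51.7 ± 23.3), Trem2 (45.7 ± 23.3), Csf1r (41.0 ± 13.5), Aif1 (29.4 ± 14.4), Cx3cr1 (20.6 ± 7.03), P2ry12 (8.19 ± 4.59) and Tmem119 (7.79 ± 2.64). Ctrl had Csf1r first (11.4 ± 2.16), then Tyrobp (11.1 ± 0.638), Cx3cr1 (4.65 ± 2.16), P2ry12 (4.35 ± 0.860), Trem2 (4.15 ± 1.07), Tmem119 (3.83 ± 0.202), Cd68 (3.63 ± 0.467), Aif1 (2.31 ± 1.17) and Fcrls (1.19 ± 0.494). Fcrls, last in Ctrl, stood above Csf1r in both knockouts, and Csf1r, level with Tyrobp in Ctrl, fell behind it. Neighbours in these orders differed by less than the larger of their SDs, except Tyrobp over Cd68 in both knockouts, Cx3cr1 over P2ry12 in hGFAP-Gnas, and Tyrobp over Cx3cr1 and Cd68 over Aif1 in Ctrl. Differences between genes were not tested.

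The homeostatic and general myeloid classes can be compared within each library, which removes most of what is common to all 9 genes. It does not remove all of it, since the 1 added to FPKM makes the same ratio smaller for low genes. The mean log2(FPKM + 1) of the general class exceeded that of the homeostatic class by 2.26 ± 0.43 in Olig1-Gnas (SD, n = 8; range 1.68 to 2.95) and 1.64 ± 0.43 in hGFAP-Gnas (n = 8; 1.21 to 2.39), against 0.63 ± 0.13 in Ctrl (n = 3; 0.55 to 0.78). No knockout library overlapped Ctrl, and hGFAP-Gnas 1 had the smallest gap of the knockouts. The largest gaps, 2.95 in Olig1-Gnas 1 and 2.39 in hGFAP-Gnas 5, came where P2ry12 was listed at 0, which can be a failed estimate. With zeros taken as missing, the mean gap was 1.56 above that of Ctrl in Olig1-Gnas (1.63 with zeros kept). In hGFAP-Gnas it was 0.91 above (1.02 with zeros kept). This is a description of chosen genes, and no test was made of it. In Olig1-Gnas 1 of 4 homeostatic genes rose, with a median log2 fold of 0.92, and 5 of 5 general genes, with a median of 3.41. In hGFAP-Gnas 2 of 4 and 5 of 5 rose, with medians of 1.34 and 2.94. Of all genes tested, 36.2% rose in Olig1-Gnas and 26.1% in hGFAP-Gnas. The median over all genes tested was 0.22 in Olig1-Gnas and 0.19 in hGFAP-Gnas. The split was not one of class alone, since Fcrls had the highest fold of all and Csf1r had a fold nearer to that of Cx3cr1.

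Tyrobp, the most abundant of the 9 genes in the knockouts and the steadiest in Ctrl after Tmem119, served as a yardstick in each library. Tmem119 was 1.16 to 10.3% of Tyrobp in Olig1-Gnas, 4.07 to 14.6% in hGFAP-Gnas and 33.1 to 36.4% in Ctrl. P2ry12 was 0 to 5.84% in Olig1-Gnas, 0 to 10.6% in hGFAP-Gnas and 34.8 to 45.3% in Ctrl. Both shares were lower in all 16 knockout libraries than in any Ctrl library. For P2ry12 this counts the 0 of Olig1-Gnas 1 and of hGFAP-Gnas 5, which may be failed estimates. Apart from these, its lowest shares were 1.89% in Olig1-Gnas and 4.57% in hGFAP-Gnas.

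Cx3cr1 showed the same separation, at 0.374 to 20.2% of Tyrobp in Olig1-Gnas, 8.88 to 27.1% in hGFAP-Gnas and 31.3 to 60.9% in Ctrl. Csf1r, although a general myeloid gene, was 11.2 to 26.0% in Olig1-Gnas, 19.5 to 67.7% in hGFAP-Gnas and 90.6 to 118% in Ctrl. Fcrls went the other way in Olig1-Gnas, where it was 19.5 to 38.3%, against 5.31 to 13.8% in Ctrl, and in hGFAP-Gnas it was 7.37 to 58.9%. Its share in hGFAP-Gnas overlapped Ctrl through hGFAP-Gnas 1 alone.

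The shares of Trem2, Cd68 and Aif1 overlapped those of Ctrl. Trem2 was 24.3 to 51.0% of Tyrobp in Olig1-Gnas, 23.9 to 49.5% in hGFAP-Gnas and 31.8 to 45.8% in Ctrl. Cd68 was 27.3 to 54.6% in Olig1-Gnas, 33.7 to 52.5% in hGFAP-Gnas and 29.5 to 35.4% in Ctrl. Its overlap in Olig1-Gnas came through Olig1-Gnas 6 alone, and the other 7 libraries, at 43.0% or more, lay above Ctrl. Aif1 was 7.10 to 45.7% in Olig1-Gnas, 8.998 to 29.95% in hGFAP-Gnas and 12.96 to 30.8% in Ctrl. Any gene that rose by less than Tyrobp falls on this scale: of all other genes tested, 89.2% had shares wholly below Ctrl in Olig1-Gnas and 81.1% in hGFAP-Gnas. The lower shares of Tmem119, P2ry12, Cx3cr1 and Csf1r are thus near what most genes show. Shares wholly above Ctrl, as Fcrls had in Olig1-Gnas, were found for 1.46% of genes there.

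**Figure D3:**
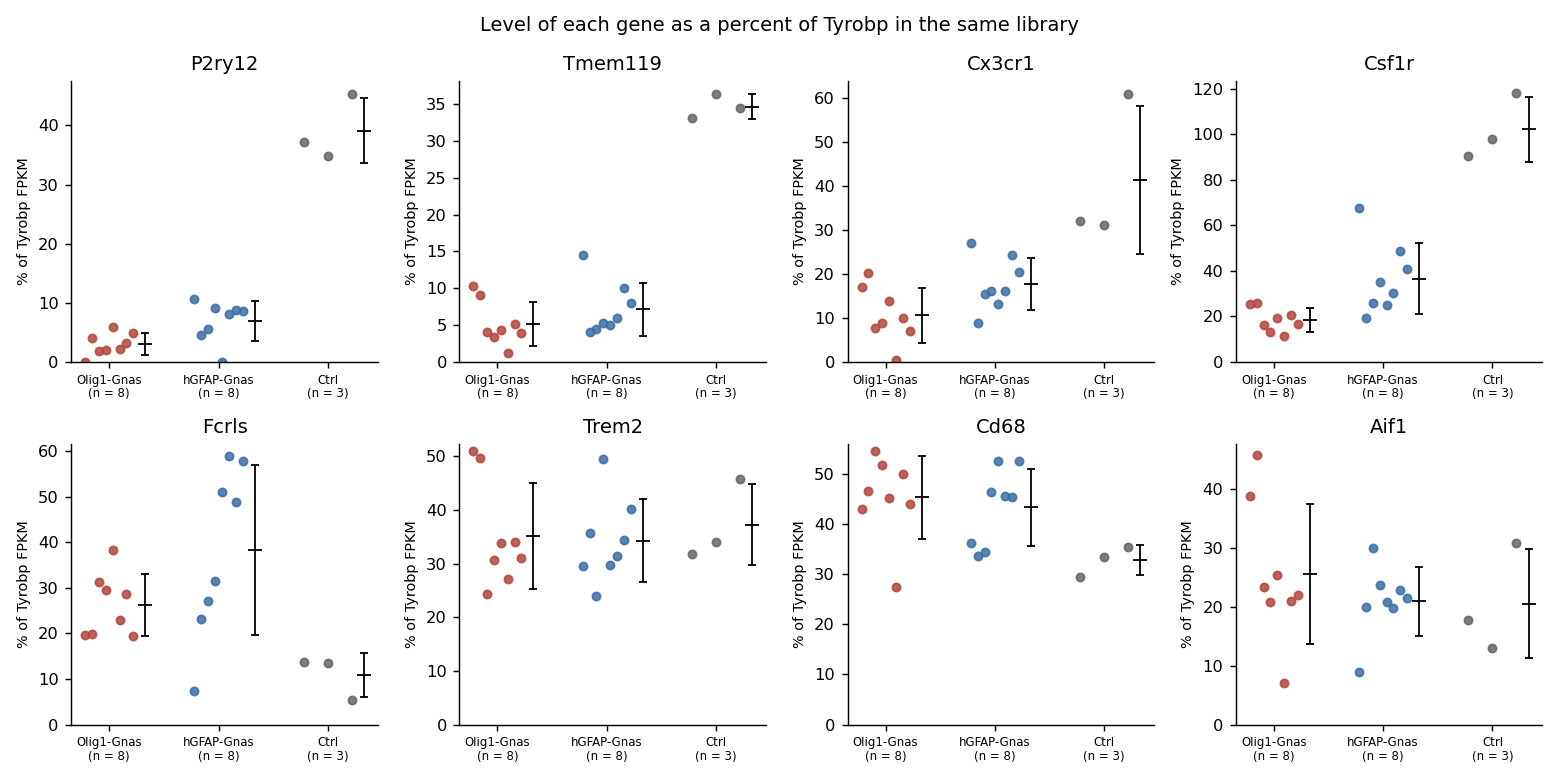
FPKM of 8 genes as a percent of Tyrobp in the same library on the vertical axis, 1 point a library with mean and SD for Olig1-Gnas (n = 8), hGFAP-Gnas (n = 8) and Ctrl (n = 3). P2ry12, Tmem119, Cx3cr1 and Csf1r lie below Ctrl in all 16 knockout libraries, while Trem2, Cd68 and Aif1 overlap it.

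Between the knockouts, no difference in the 9 genes was detectable. Olig1-Gnas against hGFAP-Gnas gave 0 of 9 called by limma, 0 at an unadjusted p under 0.05 (lowest 0.104) and 0 in every alternative fit, with 0.41% of 14386 genes called. The log2 fold was -0.67 for Cx3cr1 (95% interval -1.82 to 0.48), -0.77 for P2ry12 (-1.92 to 0.37), -0.17 for Tmem119 (-1.01 to 0.68) and -0.08 for Fcrls (-1.25 to 1.08). On this log scale all 4 homeostatic genes had negative values, and so did Csf1r at -0.56 (-1.25 to 0.13). For Tmem119 the direction depends on the scale, since its mean FPKM was higher in Olig1-Gnas (9.02 FPKM) than in hGFAP-Gnas (7.79 FPKM). The remaining general genes had positive values, with 0.35 for Trem2 (-0.60 to 1.31), 0.34 for Tyrobp (-0.47 to 1.16), 0.39 for Cd68 (-0.43 to 1.21) and 0.47 for Aif1 (-0.70 to 1.63). These intervals span differences of more than 1 log2 unit in one direction for every gene, so missing the threshold does not show that the knockouts are alike. Several of these signs turned under other settings, as given under the processing.

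Within a knockout group, the 9 genes tended to vary together between mice. Over 72 pairs of genes in the 2 groups (8 libraries each, or 7 where P2ry12 was at 0), Pearson's r had a median of 0.73 in Olig1-Gnas, where 13 of 36 pairs passed a two-sided exact permutation test after adjustment, and 0.92 in hGFAP-Gnas, where 8 of 36 passed. By the same test on Spearman's ρ, no pair passed in either group (lowest adjusted p = 0.0821). Pairs of other genes were not counted, so these counts are not shown to be particular to the 9. Without the 2 libraries farthest from the median of the first gene, the median r was 0.35 in Olig1-Gnas and 0.18 in hGFAP-Gnas. The libraries left out included Olig1-Gnas 1 and 2 and hGFAP-Gnas 1. Leaving out the farthest libraries narrows the range of the first gene, which by itself tends to lower r. The drop alone thus does not show how far the relation rests on them. Trem2 and Tyrobp in Olig1-Gnas had r = 0.95 (exact permutation p = 3.97e-04, adjusted 0.0125) and Spearman's ρ = 0.90 (p = 0.00456, adjusted 0.0821), and r = 0.85 without the 2 libraries. Cx3cr1 and Aif1 in Olig1-Gnas had r = 0.92 (exact permutation p = 0.00139, adjusted 0.0125) and Spearman's ρ = 0.81 (p = 0.0218, adjusted 0.174), and r = 0.94 without them. Tyrobp and Aif1 in hGFAP-Gnas had r = 0.99 (exact permutation p = 3.72e-04, adjusted 0.0125) and Spearman's ρ = 0.95 (p = 0.00114, adjusted 0.0821), and r = 0.91 without them. By contrast Tyrobp and Cd68 in hGFAP-Gnas had r = 0.97 (exact permutation p = 0.00920, adjusted 0.0390) and Spearman's ρ = 0.64 (p = 0.0962, adjusted 0.231), but r = -0.02 without the 2 libraries.

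Genes outside the 9 whose levels followed each class most closely were ranked over all 19 libraries after centring within groups, among 11022 genes with at least 5 FPKM on average. Nearest to the general myeloid class were the 3 genes of complement C1q, C1qa (r = 0.99), C1qc (r = 0.98) and C1qb (r = 0.98), followed by AF251705 (r = 0.96) and Unc93b1 (r = 0.96), a chaperone of Toll-like receptors. Nearest to the homeostatic class were Rab3il1 (r = 0.91), Unc93b1 (r = 0.89), Cyth4 (r = 0.89), Pld4 (r = 0.88) and Il10rb (r = 0.88), a chain of the interleukin 10 receptor. The libraries share their sources and a few distant mice, so these values are given as a description.

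A wider list of 14 homeostatic microglia genes was again divided. In Olig1-Gnas 4 of 12 tested rose and 1 fell (median log2 fold 0.58), a share no higher than the 36.2% of all genes that rose there. Sall1, a microglial transcription factor also found in neural progenitors, rose by 1.84 ± 0.52 (adjusted p = 0.00939) and the TGF-β receptor gene Tgfbr1 by 1.77 ± 0.31 (adjusted p = 3.94e-04). Siglech, a microglial lectin, fell by 0.83 on the log2 scale (SE 0.25, adjusted p = 0.0117). In hGFAP-Gnas 5 of 12 rose and 0 fell (median 1.05), where 26.1% of all genes rose, with Tgfbr1 at 1.73 ± 0.30 (adjusted p = 0.00691) and Gpr34, a lysophospholipid receptor, at 1.27 ± 0.45 (adjusted p = 0.0424). The call of Gpr34 was lost without any of the Ctrl libraries (0.110 to 0.115) or of hGFAP-Gnas 2 to 8 (0.0574 to 0.0665), under quantile normalization (0.0868), without a filter (0.0575), in 1 fit of all groups (0.0521) and with depth as a term (0.0534).

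A wider list of 14 general myeloid genes moved nearly as a whole. In Olig1-Gnas 13 of 14 rose (median log2 fold 2.29), all but the integrin gene Itgam (0.80 ± 0.49, adjusted p = 0.178). In hGFAP-Gnas 14 of 14 rose (median 2.24). Of all genes tested, 36.2% rose in Olig1-Gnas and 26.1% in hGFAP-Gnas. Lyz2, lysozyme of myeloid cells, averaged 563 ± 191 FPKM in Olig1-Gnas and 514 ± 213 FPKM in hGFAP-Gnas, against 13.3 ± 4.25 FPKM in Ctrl (SD). Its log2 fold was 5.27 ± 0.31 in Olig1-Gnas (adjusted p = 5.60e-08) and 4.77 ± 0.94 in hGFAP-Gnas (adjusted p = 0.00814). Fcer1g, an adaptor of Fc receptors, rose by 3.83 ± 0.25 in Olig1-Gnas and 3.39 ± 0.51 in hGFAP-Gnas, and Ctss, a protease of antigen presentation, by 3.02 ± 0.48 in Olig1-Gnas and 2.88 ± 0.44 in hGFAP-Gnas. Sfpi1, the older symbol of the PU.1 gene Spi1, rose by 2.18 ± 0.34 in Olig1-Gnas (adjusted p = 1.78e-04) and by 2.32 ± 0.49 in hGFAP-Gnas (adjusted p = 0.00935); it is named because its site was searched above.

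Of 4 ligands that act on microglia, 1 rose (Tgfb1) and 1 fell (Cx3cl1) in Olig1-Gnas, and 2 rose (Csf1 and Tgfb1) and 1 fell (Cx3cl1) in hGFAP-Gnas. Among all genes tested, 36.2% rose and 23.6% fell in Olig1-Gnas, so the count there is near that of any genes. In hGFAP-Gnas 26.1% rose and 12.8% fell. Cx3cl1, the neuronal ligand of CX3CR1, averaged 5.13 ± 3.93 FPKM in Olig1-Gnas and 12.7 ± 10.4 FPKM in hGFAP-Gnas, against 32.65 ± 6.30 FPKM in Ctrl (SD). It fell by 2.71 on the log2 scale in Olig1-Gnas (SE 0.51, adjusted p = 7.29e-04) and by 1.57 in hGFAP-Gnas (SE 0.52, adjusted p = 0.0349), where the call was lost without any of the Ctrl libraries (0.0805 to 0.110) or without hGFAP-Gnas 3, 4, 6 or 8 (0.0538 to 0.0566). The summed neuronal markers given above were lower in the same libraries, and their part in this result was not tested.

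Csf1, the CSF1R ligand made by glia, averaged 8.05 ± 4.41 FPKM in Olig1-Gnas and 15.6 ± 5.11 FPKM in hGFAP-Gnas, against 7.57 ± 1.01 FPKM in Ctrl. Its log2 fold was -0.07 ± 0.39 in Olig1-Gnas (adjusted p = 0.893) and 0.89 ± 0.27 in hGFAP-Gnas (adjusted p = 0.0275). In hGFAP-Gnas the call was lost without any of the Ctrl libraries (0.0642 to 0.103), under quantile normalization (0.0505), in 1 fit of all groups (0.0610) and among the shallower libraries (0.424). Il34, the ligand of CSF1R made by neurons, had log2 folds of -0.50 ± 0.22 in Olig1-Gnas (adjusted p = 0.0659) and 0.03 ± 0.25 in hGFAP-Gnas (adjusted p = 0.927). In Olig1-Gnas it passed under quantile normalization (adjusted p = 0.0228), under upper quartile scaling (adjusted p = 0.0221), in limma without trend and robust moderation (adjusted p = 0.0459) and without Olig1-Gnas 7 (adjusted p = 0.0282). Tgfb1, the cytokine that sustains homeostatic microglia, rose by 1.14 ± 0.30 in Olig1-Gnas (adjusted p = 0.00614) and by 1.21 ± 0.30 in hGFAP-Gnas (adjusted p = 0.0148), where the call was lost without Ctrl 1 (0.0694) or Ctrl 2 (0.0602).

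Genes that signal below CSF1R, TREM2 and TYROBP rose in 5 of 6 tested in Olig1-Gnas (median log2 fold 1.72) and 7 of 7 in hGFAP-Gnas (median 1.65), beside 36.2% and 26.1% of all genes. Ptpn6, a phosphatase that dampens myeloid receptors, rose by 2.02 ± 0.62 in Olig1-Gnas (adjusted p = 0.0140) and 2.09 ± 0.43 in hGFAP-Gnas (adjusted p = 0.00909). The first call was lost without Ctrl 1 (0.0522) or Ctrl 2 (0.0509) and the second without Ctrl 2 (0.0503). Vav1, a signalling protein of blood cells, rose by 1.84 ± 0.49 in Olig1-Gnas and 1.84 ± 0.33 in hGFAP-Gnas. The kinase gene Sykb (Syk), which binds TYROBP, rose by 1.85 ± 0.34 in Olig1-Gnas, and the lipid phosphatase gene Inpp5d by 1.73 ± 0.30 in hGFAP-Gnas.

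**Figure D4:**
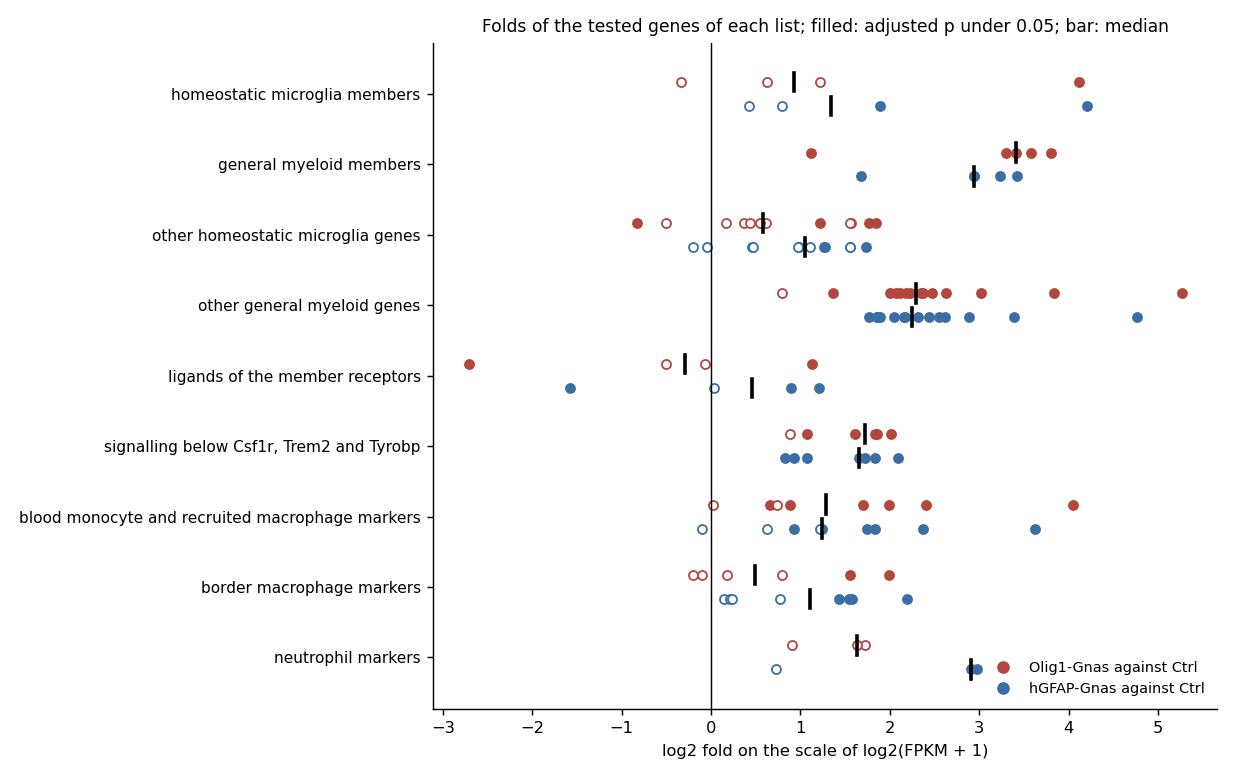
Log2 folds on the scale of log2(FPKM + 1) of every tested gene of 9 lists, with Olig1-Gnas against Ctrl in red above hGFAP-Gnas against Ctrl in blue, filled points for an adjusted p under 0.05 and a bar at the median of the list. The general myeloid lists and the signalling list lie to the right of 0 throughout, and the homeostatic and ligand lists lie on both sides of 0.

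Markers of other myeloid and blood cells were present beside these genes. Of 10 genes of blood monocytes and recruited macrophages, 6 of 8 tested rose in Olig1-Gnas (median log2 fold 1.29) and 6 of 9 in hGFAP-Gnas (median 1.24), beside 36.2% and 26.1% of all genes. Their summed level was 45.7 to 127 FPKM in Olig1-Gnas and 21.1 to 110 FPKM in hGFAP-Gnas, against 15.4 to 18.2 FPKM in Ctrl. Ly6c2 of this list averaged 11.7 FPKM in Ctrl, most of that sum. In Olig1-Gnas its log2 fold was 0.017 ± 0.80 (adjusted p = 0.987). F13a1, which was not tested there, averaged 0.716 FPKM in Olig1-Gnas and 0.756 FPKM in Ctrl. Ms4a7, a membrane protein of macrophages, rose by 4.05 ± 0.19 in Olig1-Gnas (adjusted p = 1.10e-08) and 3.62 ± 0.80 in hGFAP-Gnas (adjusted p = 0.0104). Plac8, a gene of blood monocytes, rose by 2.41 ± 0.58 in Olig1-Gnas and 1.83 ± 0.50 in hGFAP-Gnas, and Tgfbi, a matrix protein of macrophages, by 1.99 ± 0.29 in Olig1-Gnas and 2.38 ± 0.51 in hGFAP-Gnas. In hGFAP-Gnas these calls were lost without Ctrl 1 (adjusted p = 0.0505, 0.0662 and 0.0523) or without Ctrl 2 (adjusted p = 0.0523, 0.0678 and 0.0523), and that of Plac8 also without Ctrl 3 (adjusted p = 0.0671). Ccr2, the defining chemokine receptor of inflammatory monocytes, averaged 0.818 ± 0.434 FPKM in Olig1-Gnas and 2.12 ± 2.32 FPKM in hGFAP-Gnas, against 0.119 ± 0.0593 FPKM in Ctrl (SD). The part of these cells in the levels of the 9 genes was not tested.

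Border macrophages, which line the meninges and vessels, were read from 8 genes, summing to 14.3 to 26.8 FPKM in Olig1-Gnas and 8.73 to 52.0 FPKM in hGFAP-Gnas, against 6.59 to 9.78 FPKM in Ctrl. In Olig1-Gnas 2 of 6 tested rose (median log2 fold 0.49), which is near the 36.2% of all genes. In hGFAP-Gnas 4 of 8 rose (median 1.10), beside 26.1% of all genes. The scavenger receptor gene Stab1 rose by 1.99 ± 0.25 in Olig1-Gnas and 2.19 ± 0.39 in hGFAP-Gnas, and the folate receptor gene Folr2 by 1.56 ± 0.28 in Olig1-Gnas and 1.58 ± 0.40 in hGFAP-Gnas. The other genes tested in Olig1-Gnas did not pass, with log2 folds of 0.80 for Pf4, 0.18 for Mrc1, -0.10 for Cbr2 and -0.20 for Clec10a. Lyve1 and Cd163 were not tested there, and both averaged less than in Ctrl. In hGFAP-Gnas the chemokine gene Pf4 rose by 1.55 ± 0.49 (adjusted p = 0.0302). The calls of Folr2 and Pf4 in hGFAP-Gnas were lost without any of the Ctrl libraries (adjusted p = 0.0526 to 0.0675 and 0.0687 to 0.113). This list held 2 genes that differed between the knockouts. Mrc1, the mannose receptor, averaged 1.34 ± 0.406 FPKM in Olig1-Gnas and 4.87 ± 1.84 FPKM in hGFAP-Gnas (log2 fold -1.26 ± 0.23, adjusted p = 0.0225). Lyve1, a hyaluronan receptor, averaged 0.193 ± 0.149 FPKM in Olig1-Gnas and 0.974 ± 0.349 FPKM in hGFAP-Gnas (log2 fold -0.71 ± 0.13, adjusted p = 0.0262). Ctrl averaged 1.04 ± 0.0684 FPKM of Mrc1 and 0.772 ± 0.304 FPKM of Lyve1 (SD). With Y-linked RNA as a term the adjusted p was 0.316 for Mrc1 and 0.280 for Lyve1, and among the deeper libraries 0.659 for both. Leaving out single libraries (Olig1-Gnas 4, hGFAP-Gnas 7 or 8 for Mrc1, and any of Olig1-Gnas 2 to 5 or hGFAP-Gnas 2, 4, 7 or 8 for Lyve1) raised it to 0.0517 to 0.0557 and to 0.0516 to 0.0634.

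Neutrophil markers rose in 0 of 3 tested in Olig1-Gnas (36.2% of all genes) and 2 of 3 in hGFAP-Gnas (26.1% of all genes), where S100a8 rose by 2.97 ± 0.59 (adjusted p = 0.00808) and S100a9 by 2.90 ± 0.54 (adjusted p = 0.00732). Their list summed to 4.20 to 209 FPKM in Olig1-Gnas and 10.5 to 94.8 FPKM in hGFAP-Gnas, against 0.879 to 2.83 FPKM in Ctrl. Lymphocyte markers were called in 0 of 2 in each knockout. Over all genes, 36.2% rose and 23.6% fell in Olig1-Gnas, and 26.1% rose and 12.8% fell in hGFAP-Gnas. Only 2 of the 9 lymphocyte genes listed were tested, so their count says little of these cells. The 9 summed to 1.37 to 63.4 FPKM in Olig1-Gnas and 0.957 to 25.1 FPKM in hGFAP-Gnas, against 0.377 to 2.27 FPKM in Ctrl, where Cd3g was at 0 in all 3 libraries. Red cell markers were called in 0 of 4 in each knockout, beside the same shares of all genes. They summed to 3.07 to 25.7 FPKM in Olig1-Gnas and 1.38 to 26.3 FPKM in hGFAP-Gnas, against 7.63 to 20.3 FPKM in Ctrl. Of the genes listed as dendritic cell markers, the 2 tested, Flt3 and Zbtb46, fell in both knockouts. They fell by 2.77 and 2.41 in Olig1-Gnas and by 2.06 and 1.54 in hGFAP-Gnas on the log2 scale, beside 23.6% and 12.8% of all genes that fell. The calls in hGFAP-Gnas were lost without any of the Ctrl libraries (adjusted p = 0.0558 to 0.109), that of Zbtb46 also without hGFAP-Gnas 2, 4, 5, 6 or 8 (adjusted p = 0.0520 to 0.0612). Both were high in Ctrl, at 11.035 ± 1.94 FPKM for Flt3 and 24.9 ± 1.60 FPKM for Zbtb46 (SD), where the other dendritic markers Xcr1 and Cd209a were under 1 FPKM. The falls of Flt3 and Zbtb46 can therefore not be read as a loss of dendritic cells.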

How the data were processed

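Whole cerebellum of 19 mice was sequenced as TruSeq RNA libraries on an Illumina instrument, per the labels. The authors deposited FPKM, in 2 tables that each hold 1 knockout and the same 3 Ctrl libraries. TopHat, Cufflinks and build mm9 are named per the submitters' processing notes, with versions, annotation, strandedness and read totals not given in the sources used here. Ctrl 2 and 3 are identical between the tables, while 5106 genes of Ctrl 1 differ (median ratio 1.00), so the knockouts were also set against each other.

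Genes reaching 1 FPKM in 3 or more libraries of a comparison were tested on log2(FPKM + 1) with limma 3.58.1 in R 4.3.3, with trend and robust moderation. P-values were adjusted by Benjamini-Hochberg over all genes tested, with calls at an adjusted p under 0.05. All 9 genes passed the filter. The fit was tested on simulated data with planted changes. P-values test a difference of group means against the spread between mice of a group, and the same 3 Ctrl mice served in both comparisons with Ctrl. Correlations used SciPy 1.17.1 and exact permutation of pairings. Depth classes came from the commonest ratio to Ctrl 2 of values under 0.5 FPKM, divided at 0.6, and Y-linked RNA was read from Ddx3y at 1 FPKM.

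The 9 genes and the other lists were chosen with earlier results of these data known. Named were the 9 genes, all ligands, up to 3 called genes of each list with the largest folds, and the 5 genes most like each class. One gene that this rule names is not reported here. Siglech, Itgam, Sfpi1, Ccr2, Ly6c2, F13a1, Mrc1, Lyve1, Cbr2, Clec10a, Cd163, Pcp2, Xcr1, Cd209a, Cd3g and Gnas were named outside this rule. Spi1 and Syk were matched by RefSeq synonyms as Sfpi1 and Sykb, and Ly6g was not matched. Alternatives changed the offset, filter, scaling, moderation, design, zeros, threshold and libraries.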

Additional observations from a re-analysis of the deposited data

Results flagged for a closer look

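In 8 of 20 groups of values searched (each of the 9 genes in each knockout, and the class difference), 1 library lay farther from the rest than Dixon's ratio allows at the 0.05 level. The ratio was taken on log2(FPKM + 1). The genes share their libraries and varied together, so the flags are not separate events and their number is not set against a chance rate. All 8 were in hGFAP-Gnas, and in all 8 the distant library was hGFAP-Gnas 1, the lowest of its group. General myeloid genes there stood at 19.7 FPKM for Tyrobp (next lowest 116), 7.13 FPKM for Cd68 (next 54.3), 5.83 FPKM for Trem2 (next 37.8), 1.77 FPKM for Aif1 (next 24.8) and 13.3 FPKM for Csf1r (next 33.3). Homeostatic genes stood at 1.45 FPKM for Fcrls (next 42.9), 5.33 FPKM for Cx3cr1 (next 17.5) and 2.87 FPKM for Tmem119 (next 6.57). The same library was nearest to Ctrl in Gabra6 and Mki67, as given above. The cause was not tested.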

How the results depend on the processing

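Of the 9 genes, 6 passed in Olig1-Gnas and 7 in hGFAP-Gnas with an offset of 0.1, without a filter, with 5 FPKM as the filter, in 1 fit of all groups, without trend and robust moderation and with zeros missing. Over all genes these settings called 7472 to 9039 of 11688 to 19181 tested in Olig1-Gnas and 4704 to 5877 of 11581 to 19243 in hGFAP-Gnas. Under quantile normalization, upper quartile scaling and an adjusted p under 0.01, 5 of 9 passed in Olig1-Gnas, beside 8456, 8265 and 6578 of all 14183 genes. In hGFAP-Gnas 7, 7 and 5 of 9 passed, beside 5462, 5495 and 921 of all 14305 genes. Leaving out 1 library left 5 to 7 of 9 and 6971 to 9546 of all genes called in Olig1-Gnas, and 4 to 8 of 9 and 818 to 8164 of all genes in hGFAP-Gnas. Replicate numbers do not pair the mice: same-numbered libraries correlated at -0.15 to 0.24 over 8 pairs, 2 of them over 0.1, and 0 libraries correlated best with their own number. With the replicate block hGFAP-Gnas gave 0 of 9 and 0 of all genes, and the knockout pair 25. Other counts over all genes were 5141 in Olig1-Gnas (shallower libraries), 6, 2277 and 921 in hGFAP-Gnas (deeper, shallower, adjusted p under 0.01), where 0 of 9 passed among the deeper libraries, and 25, 178, 166, 3, 3 and 10 between knockouts (5 FPKM, 1 fit, depth term, deeper libraries, Y-linked term, adjusted p under 0.01), with 11 to 104 on leaving out 1 library. The gap between classes, 1.63 above Ctrl in Olig1-Gnas and 1.02 in hGFAP-Gnas, was 2.11 without Csf1r in Olig1-Gnas, and 2.36 and 1.60 with medians for means.

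Quantile normalization gave a median fold over all genes of 0.06 (Olig1-Gnas) and -0.0065 (hGFAP-Gnas), and upper quartile scaling 0.04 and 0.07. The share of calls that were higher moved to 51.4% and 51.4% in Olig1-Gnas (60.5% as reported) and to 49.8% and 60.8% in hGFAP-Gnas (67.1%), and between knockouts to 51.8% and 29.3% (35.6%). Among the shallower libraries the calls of Sall1, Ctss, Tgfb1, Ptpn6, Vav1 and Zbtb46 in Olig1-Gnas (adjusted p = 0.0759 to 0.218) and of Cx3cl1, Tgfb1, Flt3 and Zbtb46 in hGFAP-Gnas (0.0600 to 0.115) were also lost, as were those of Pf4 under quantile normalization (0.0561) and of Zbtb46 without a filter (0.0529) in hGFAP-Gnas.

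Signs turned only in folds that did not pass, the cause not tested: P2ry12 in Olig1-Gnas (0.17, deeper) and hGFAP-Gnas (-0.028, shallower); Csf1 in Olig1-Gnas (0.17, block; 0.024, deeper); Il34 in hGFAP-Gnas (-0.20, quantile; -0.081, upper quartile; -0.12, shallower); and between knockouts Tmem119 (0.27, shallower), Fcrls (0.49, deeper), Tyrobp (-0.015, Y-linked term), Aif1 (-0.045, deeper) and Tgfb1 (0.057, quantile; 0.34, shallower). Leaving out 1 library gave -0.21 to 0.096 for Csf1 in Olig1-Gnas, -0.098 to 0.19 for Il34 in hGFAP-Gnas, and between knockouts -0.45 to 0.024 for Tmem119, -0.65 to 0.059 for Fcrls, -0.0073 to 0.51 for Trem2, -0.0079 to 0.49 for Tyrobp and -0.21 to 0.023 for Tgfb1.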
